A study of Mus musculus with 2 samples.

Results

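T cells made up 146 of the 14849 cells kept from sorted mouse brain, 61 of 7032 in the Disc1 WT/WT library and 85 of 7817 in the Disc1 LI/LI library. They were chosen by their own transcripts. A cell had to hold UMIs of at least 2 of Cd3d, Cd3e, Cd3g and Trac, of fewer than 3 of 8 NK cell genes (Ncr1, Klrb1c, Klre1, Klra4, Klra8, Eomes, Gzma and Prf1), and under 3% of its UMIs could come from S100a8 and S100a9, the main transcripts of neutrophils. UMIs are random tags added to transcripts before amplification, and counting them counts transcripts and not copies. Before the choice, barcodes under 200 genes or over 10% mitochondrial UMIs were dropped.

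The cells came from male mice of 23 weeks, either Disc1 WT/WT or homozygous for the locus impairment allele of Disc1 (Disc1 LI/LI), as littermates. The brains of 6 mice were pooled per genotype and gave 1 library each, so the genotypes cannot be told apart from the libraries and no test was made. Both pools were treated with actinomycin D to stop transcription during dissociation and sorted for low CD45 and for CD11b, a gate meant for microglia, and the labels call the sorted cells microglia. All intervals below are 95% exact intervals for counting error only and say nothing about differences between mice.

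T cells have a receptor made of variable chains, alpha with beta or gamma with delta, that signals through the CD3 chains. Receptors of alpha and beta chains recognise peptides bound to MHC molecules. CD8 T cells read MHC class I and kill infected or transformed cells, while CD4 T cells read MHC class II and direct other immune cells through cytokines and CD40 ligand. In the healthy brain T cells are rare, sit mainly in the meninges and choroid plexus with a few in the parenchyma, and most have the surface proteins of memory cells that stay in tissue, whereas naive cells circulate through blood and lymph nodes.

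Cd3d, Cd3e and Cd3g, which encode the CD3 chains, lie together on chromosome 9 (mm10, GENCODE M21). Cd3d covers 44981786 to 44987339 on the plus strand and Cd3g covers 44969572 to 44980431 on the minus strand, so that the pair start 1355 bases apart and run away from each other. UMIs of both were found in 54 of 61 and 78 of 85 T cells, a count that the choice of cells fixes in part. The 250 bases before each start are shown because this pair of head-to-head starts carries the genes that define the cells. The sequences are from RefSeq (GRCm38.p6), 5' to 3' on the strand of the gene, Cd3d at chr9:44981536-44981785 (plus) and Cd3g at chr9:44980432-44980681 (minus). Capitals mark the letters AGGAAG or CTTCCT, the same motif on either strand, bound by ETS factors.
Cd3d: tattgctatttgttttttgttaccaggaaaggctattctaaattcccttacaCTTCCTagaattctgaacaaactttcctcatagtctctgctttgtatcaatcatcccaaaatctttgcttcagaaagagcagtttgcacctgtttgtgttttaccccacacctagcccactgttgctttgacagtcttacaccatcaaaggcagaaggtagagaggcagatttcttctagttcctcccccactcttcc
Cd3g: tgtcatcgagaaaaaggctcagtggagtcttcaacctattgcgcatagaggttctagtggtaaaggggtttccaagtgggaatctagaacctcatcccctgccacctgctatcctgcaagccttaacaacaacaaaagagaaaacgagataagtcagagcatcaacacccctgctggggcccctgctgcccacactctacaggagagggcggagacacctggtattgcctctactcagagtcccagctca
Cd3d held 1 match and Cd3g held 0. The motif was found in 29.5% of 32851 promoter windows of this length. TGTGGT, bound by RUNX factors, and its reverse ACCACA were in neither window and in 14.0% of all windows.

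The libraries stood apart in the cells they held. Microglia-rule cells, with at least 3 of 7 microglia genes, made up 93.3% of Disc1 WT/WT cells but 29.8% of Disc1 LI/LI cells. Neutrophil-rule cells, with at least 3% of UMIs from S100a8 and S100a9, made up 1.58% and 43.8%. Neither class held a cell with a UMI of Cd3d, Cd3e, Cd3g or Trac. Cells that met either limit but held one of these genes lay outside both classes. The T cell share was 0.867% (0.664 to 1.11) in Disc1 WT/WT and 1.09% (0.869 to 1.34) in Disc1 LI/LI, with overlapping intervals. Per 100 microglia-rule cells there were 0.930 and 3.65 T cells, and per 100 NK-rule cells 290 and 137. The libraries shared 12 barcodes, of which 0 were T cells in either. T cells held 356803 UMIs in Disc1 WT/WT, with a median of 4942 per cell (1599 to 16728), and 547364 in Disc1 LI/LI, with a median of 5541 (1858 to 31117). The median number of genes per T cell was 1812 and 1623. Transcripts of Ddx3y, on the Y chromosome, were found in 27 T cells of each library and Xist in 0 of 61 and 0 of 85.

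Most T cells lay well inside the limits of the choice. All 4 of Cd3d, Cd3e, Cd3g and Trac were detected in 46 of 61 and 57 of 85 cells, 3 of them in 12 and 22, and 2 in 3 and 6. None of the 8 NK genes was detected in 46 and 54 cells, 1 in 9 and 21, and 2 in 6 and 10. Just outside, with 1 of the 4 CD3 genes, were 16 cells in Disc1 WT/WT, beside 27 in Disc1 LI/LI. Both counts take only cells within the limits for NK genes and for S100a8 and S100a9. Of these cells, 15 and 16 had at least 3 of the 7 microglia genes. A further 10 cells, all Disc1 LI/LI, had at least 2 CD3 genes and at least 3 NK genes, 8 of them exactly 3. The S100a8 and S100a9 limit left out 6 Disc1 LI/LI and 0 Disc1 WT/WT cells, and the highest share in a T cell that was kept was 0.0424% in Disc1 WT/WT and 0.192% in the Disc1 LI/LI library.

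T cell genes that the choice did not use were found in most of these cells. Trbc2 (chromosome 6, 41546730 to 41548352), a constant segment of the receptor beta chain, was detected in 61 of 61 T cells in Disc1 WT/WT and 81 of 85 in Disc1 LI/LI, against 0.0915% and 0.258% of microglia-rule cells, whose median depth was 4256 and 3908 UMIs. NK-rule cells were lymphocytes with at least 3 of the 8 NK genes and fewer than 2 CD3 genes. The 10 cells above that had at least 2 CD3 genes thus lay outside this class. Lck, the kinase that starts receptor signaling, was found in 80.3% and 72.9% of T cells, but also in 66.7% and 72.6% of NK-rule cells. Trbc2 was found in 52.4% and 46.8% of NK-rule cells. These 2 genes thus set T cells apart from microglia and less from NK cells. Lat, the adaptor that gathers the signaling complex, was found in 67.2% and 68.2% of T cells and in 19.0% and 14.5% of NK-rule cells. Bcl11b, a transcription factor that holds T cell identity, was found in 46 of 61 and 42 of 85 T cells, in 9.52% and 3.23% of NK-rule cells and in 0.0457% and 0.0430% of microglia-rule cells. The markers thus bear out the name of T cells in both libraries. Bcl11b was detected in a smaller share of the Disc1 LI/LI cells, 49.4% (38.4 to 60.5) against 75.4% (62.7 to 85.5), and 19.2% against 30.7% when every cell was thinned to 1500 UMIs, which left out no T cell. Cd247, the zeta chain of the receptor, was detected in 20 and 37 cells. Trbc1 and Trbc2 are nearly identical, and their split of reads is uncertain.

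**Figure D1:**
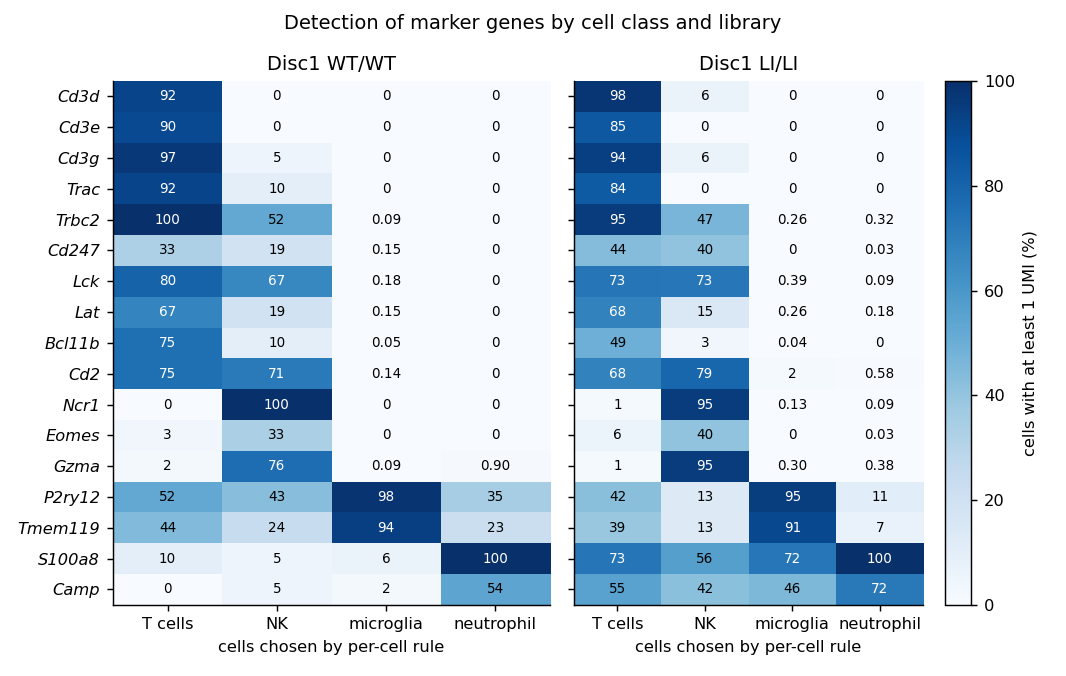
Share of cells with at least 1 UMI (color and printed value, %) for 17 genes (rows) in cells chosen by the T, NK, microglia and neutrophil rules (columns), for each library. T cells hold Trbc2 in 100% and 95% of cells and rarely hold Ncr1 or Gzma, and in Disc1 LI/LI S100a8 is found in 73% of them.

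NK-rule cells (21 and 62) were the other lymphocyte class that was taken. Against them, the 10 genes with the highest ratio in both libraries were Cd3e, Cd8b1, Cd8a, Cd3d, Slfn1, Trac, Themis, Ctla4, Gm12840 and Cd6. Of these, Cd3e, Cd3d and Trac were used by the choice. Disc1 LI/LI NK-rule cells held Cd3d in 4 of 62 cells, Cd3g in 4 and Cd3e and Trac in 0. The contrast of these genes is thus fixed in part by how both classes were taken. Themis, needed for thymic selection, was at 146 and 38.4 CPM (the UMIs of the gene in all cells of a class, per 1000000 UMIs of those cells) in T cells and at 0 CPM in NK-rule cells of both libraries. The lowest were Gzma, Klra8, Klra4, Ncr1, Klrb1a, Klrb1b, Cma1, Klra9, Klra3 and S1pr5. Gzma, a granzyme, was at 2.80 and 1.83 CPM in T cells and at 12756 and 7844 CPM in NK-rule cells, a contrast that the choice fixes. S1pr5, a sphingosine phosphate receptor of NK and terminal effector cells that the choice did not use, had 0 UMIs in T cells of both libraries and 109 and 49.0 CPM in NK-rule cells. Klrd1 (CD94), shared by NK cells and CD8 T cells, was found in 18 of 61 and 39 of 85 T cells.

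Against microglia-rule cells, the 20 highest ratios included, beside the 4 genes of the choice, Gm2682, Trbc2, Klrc1, Cd6, Sh2d1a, Ctla4, Themis, Trbc1, Gzmk, Xcl1, Thy1, Samd3, Skap1, Prf1, Trgv2 and Tcf7. The 4 genes of the choice had 0 UMIs in microglia-rule cells, which the way that class was taken fixes. Thy1, a surface marker of T cells, was at 196 CPM in Disc1 WT/WT and 183 CPM in Disc1 LI/LI T cells, and at 0.0638 and 0.176 CPM in microglia-rule cells. Tcf7, the factor of naive and memory stem cells, was at 213 and 155 CPM in T cells and at 0.160 and 0.176 CPM in microglia-rule cells. Both genes were well above the background of the droplets in each library.

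CD8 T cells were the most frequent kind in both libraries. UMIs of Cd8a or Cd8b1 without Cd4 were found in 31 of 61 Disc1 WT/WT T cells (50.8%, 37.7 to 63.9) and 46 of 85 Disc1 LI/LI T cells (54.1%, 43.0 to 65.0). Cd8a and Cd8b1, the chains of the CD8 coreceptor, were both found in 26 and 35 of these cells. Cd4 without Cd8 was found in 15 of 61 (24.6%, 14.5 to 37.3) and 5 of 85 (5.88%, 1.94 to 13.2), and these intervals do not overlap. Neither was detected in 15 (24.6%) and 33 (38.8%, 28.4 to 50.0) cells, and 1 Disc1 LI/LI cell held both. Cd4 had few UMIs, 21 in T cells of Disc1 WT/WT and 8 in those of Disc1 LI/LI, so cells without it may still carry it. Thinned to 1500 UMIs, 9.85% and 2.98% of T cells would show Cd4 alone, and 44.0% and 38.5% Cd8 alone. The background was low, with Cd4 in 0.107% and 0.129% of microglia-rule cells.

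**Figure D2:**
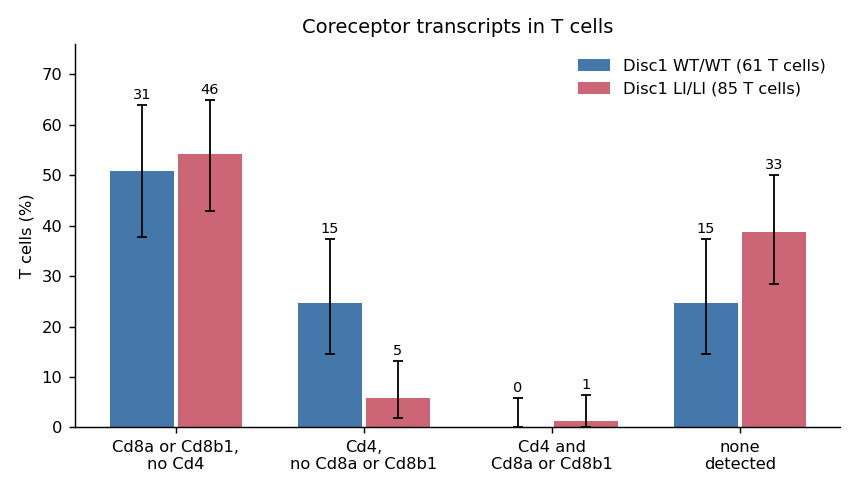
Share of T cells (%) with UMIs of Cd8a or Cd8b1, of Cd4, of both and of none, in Disc1 WT/WT (61 cells) and Disc1 LI/LI (85 cells), with exact binomial intervals as error bars and the number of cells above them. The bars for Cd8 are alike in height (50.8% and 54.1%), and the Cd4 bar of Disc1 LI/LI (5.88%) lies below the interval of Disc1 WT/WT.

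The CD8 T cells carried effector transcripts in both libraries. Nkg7, a protein of cytotoxic granules, was detected in 30 of 31 CD8 cells of Disc1 WT/WT and 40 of 46 of Disc1 LI/LI, and Ccl5, a chemokine of memory and effector CD8 cells, in 27 and 29. Cxcr6, a chemokine receptor of tissue resident cells, was found in 24 of 31 and 20 of 46, Xcl1, a chemokine that attracts dendritic cells, in 18 and 13, and Gzmk in 14 and 8. Other genes of the same lists had another order, with Cd69 in 19 and 34, Ly6c2 in 13 and 29 and Klrd1 in 16 and 24. Of the genes of naive and recirculating cells, Klf2, the factor that drives exit from tissue, was found in 9 of 31 and 30 of 46 CD8 cells, and Lef1, a factor of naive cells, in 11 and 28. Dapl1 was found in 4 and 16 of them.

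The 15 Disc1 WT/WT CD4 cells held transcripts of helper cells. Cxcr6 was found in 10 of 15, Cd40lg, the ligand that activates B cells and macrophages, in 9, and Icos, a costimulatory receptor, in 9. Maf, a factor of helper cytokine genes, was found in 14, but also in 87.7% of microglia-rule cells of that library, and in 22 of 29 T cells above and 13 of 32 below a line of 1% microglia transcripts that is described below. In the 5 Disc1 LI/LI CD4 cells, Cd40lg and Icos were found in 0, Maf in 1 and Cxcr6 in 2. With 5 cells these counts carry little precision. Of the 16 Disc1 WT/WT T cells with Cd40lg, 9 held Cd4, 7 held neither coreceptor and 0 held Cd8. Foxp3, the factor of regulatory T cells, had 3 UMIs in 2 Disc1 WT/WT cells and 1 UMI in 1 Disc1 LI/LI cell.

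A few T cells carried transcripts of gamma delta or IL-17 producing cells. Trdc, the constant segment of the delta chain (chromosome 14, 54142851 to 54148868), was found in 1 of 61 Disc1 WT/WT cells, with 15 UMIs, and in 6 of 85 Disc1 LI/LI cells, with 7, 17, 11, 9, 8 and 14 UMIs, and in 0 microglia-rule cells. NK-rule cells held it too, in 2 of 21 and 15 of 62 cells. None of the 7 T cells held Cd4 or Cd8, and 4 of the 6 Disc1 LI/LI cells held no Trac, but all 7 held Trbc2. All 6 Disc1 LI/LI cells held Klf2, Ly6c2 and Txk. Txk, a Tec kinase, and Ly6c2 are named as members of the lists below.

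Il17a, the cytokine of Th17 and related cells, was found in 5 of 61 T cells in Disc1 WT/WT, with 33, 76, 14, 3 and 37 UMIs, and in 1 of 85 in Disc1 LI/LI, with 14 UMIs. Each of the 6 held Trbc2 and none held Trdc, and 3 of the Disc1 WT/WT cells held Cd4. Cxcr6 or Ccr6 was found in each of the 6. The summed level, 457 and 25.6 CPM, thus rests on these few cells.

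Segments of the receptor that vary between clones were seen in few cells, since the libraries read the 3' end of transcripts. A Trav segment was found in 14 and 15 cells, a Trbv segment in 20 and 7, a Trgv segment in 10 and 16 and a Trdv segment in 2 and 2. No Trav or Trbv segment was in more than 4 cells of a library. Trgv2, a gamma segment, was the most frequent, with 10 of 61 and 11 of 85 cells, and 9 and 3 of these held Cd8.

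Microglia transcripts were frequent in T cells. The UMIs of 12 microglia markers, among them C1qa, P2ry12 and Cx3cr1, reached at least 1% of all UMIs in 29 of 61 Disc1 WT/WT T cells (47.5%, 34.6 to 60.7) and 36 of 85 Disc1 LI/LI T cells (42.4%, 31.7 to 53.6). The same was true of 6 of 21 (28.6%) and 6 of 62 (9.68%, 3.64 to 19.9) NK-rule cells, and of 22.5% (15.1 to 31.4) and 4.62% (3.94 to 5.37) of neutrophil-rule cells. In Disc1 LI/LI the interval of T cells lay above both of the others, and in Disc1 WT/WT above that of neutrophil-rule cells. The median share was 0.907% and 0.428% in T cells and 5.50% and 6.09% in microglia-rule cells, and the highest T cell reached 4.66% and 5.09%. All 12 markers were detected in T cells of both libraries, and their summed level was 19417 and 14055 CPM, with C1qa the most abundant in Disc1 LI/LI.

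T cells above and below this 1% line differed in other ways as well. Those above it held more UMIs, with medians of 7300 against 3983.5 in Disc1 WT/WT and 6657.5 against 4618 in Disc1 LI/LI. They held 5.10 against 5.97 Cd3g UMIs per cell in Disc1 WT/WT and 4.08 against 4.86 in Disc1 LI/LI, and 3.03 against 3.97 and 3.69 against 5.12 Cd3d UMIs per cell, both lower above the line. Trac was at 3.62 against 2.72 UMIs per cell in Disc1 WT/WT and 2.44 against 2.90 in Disc1 LI/LI, so the order differed between these genes, all of which were used to choose the cells. Itgam, which encodes the CD11b of the sort, was found in 20 of 29 cells above and 4 of 32 below the line in Disc1 WT/WT, and in 26 of 36 and 5 of 49 in Disc1 LI/LI. Csf1r, the growth factor receptor of microglia, was found in 29 of 29 against 5 of 32, and in 34 of 36 against 6 of 49. Whether such droplets held a microglia beside the T cell was not tested. For the gene lists below, values without the T cells above the line, which leaves 32 and 49, are given where the calls changed or the median moved most.

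**Figure D3:**
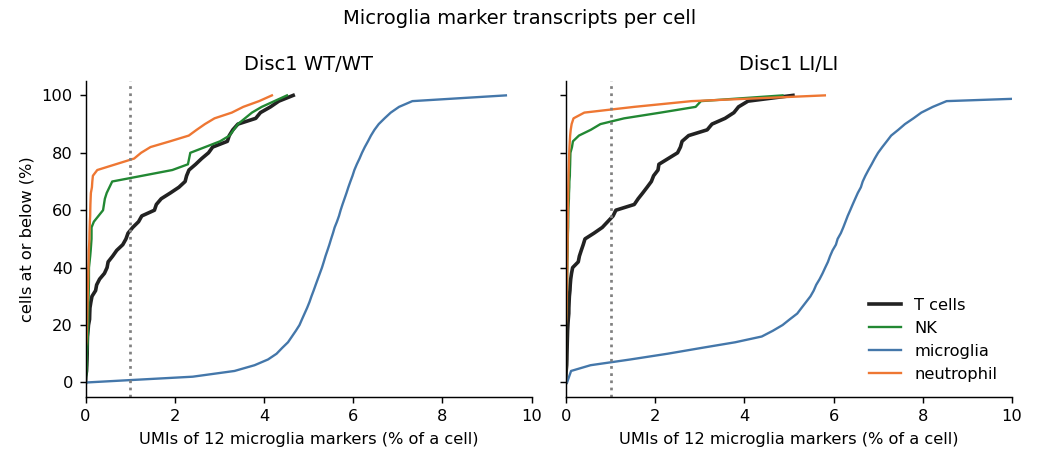
Cumulative share of cells (y axis, %) by the share of a cell's UMIs that came from 12 microglia markers (x axis, %), for T, NK-rule, neutrophil-rule and microglia-rule cells of each library, with a dotted line at 1%. The T cell curve lies to the right of the NK and neutrophil curves over most of its course and 47.5% and 42.4% of T cells lie beyond the line.

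Between the libraries, 3950 genes with at least 30 UMIs in T cells were compared by the log2 ratio of their CPM, Disc1 LI/LI over Disc1 WT/WT. A gene was counted as higher or lower where the ratio passed 2-fold and the counting interval left out 0. Of the 3950 genes, 2.56% (101) were higher and 10.6% (419) were lower in Disc1 LI/LI. The median of all was -0.23, and TMM scaling, with factors of 1.11 and 0.903, moved every ratio up by 0.29. It gave 206 higher and 194 lower genes in place of 101 and 419, so ratios near 0 carry no direction. The ratio also went down with gene length, with medians of 0.13, -0.09, -0.35 and -0.62 in 4 bins of genes from the shortest to the longest. In the bin of the longest genes, from 50637 bases, 8 genes were higher and 237 lower. The part of gene length in the values below was not tested, and library and genotype cannot be told apart.

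**Figure D4:**
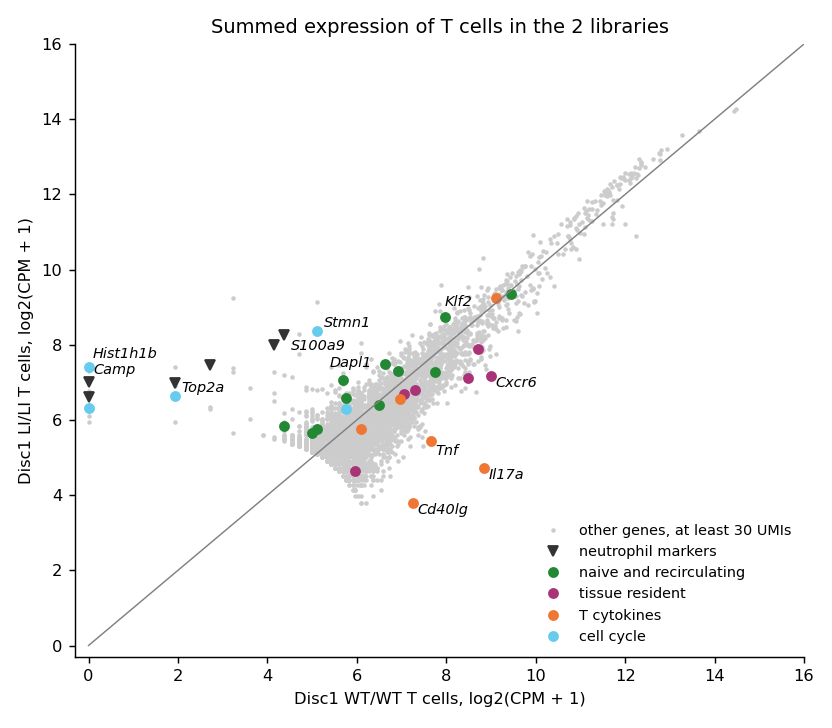
Summed expression of 3950 genes in T cells, log2(CPM + 1), Disc1 WT/WT (x axis) against Disc1 LI/LI (y axis), with 5 gene lists in color or as triangles and a line at equal values. Il17a, Cd40lg, Tnf and Cxcr6 lie below the line, and neutrophil markers such as Camp (0 and 128 CPM) and cell cycle genes such as Top2a lie far above it.

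Genes of naive and recirculating T cells were on the whole higher in the Disc1 LI/LI cells. Of 11 measured, 8 had a positive ratio, with a median of 0.64 (0.92 without the T cells above the microglia line and 0.93 with TMM scaling), beside -0.31 for all 7422 genes with at least 10 UMIs, of which 2489 were positive. Dapl1 and Nsg2 passed the 2-fold limit, 2 of 11 beside 2.56% of all genes. Dapl1 (chromosome 2, 59484653 to 59505020) was at 50.4 CPM in Disc1 WT/WT (6 of 61 cells) and 132 CPM in Disc1 LI/LI (21 of 85), a log2 ratio of 1.38 (0.62 to 2.22), or 0.63 (-0.22 to 1.57) without the T cells above the microglia line, and was in 1 of 6560 and 0 of 2326 microglia-rule cells. Nsg2 was in 5 of 61 and 22 of 85 cells, with a ratio of 1.53 (0.32 to 2.96). Both were found in a larger share of the Disc1 LI/LI cells. Klf2 was at 249 and 426 CPM (20 and 56 cells), a ratio of 0.77 (0.41 to 1.14). Klf2 was also in 16.1% and 23.5% of microglia-rule cells, and in 79.3% and 63.4% of neutrophil-rule cells. The part of transcripts from those cells in its ratio was not tested. Lef1 was in 19 and 43 cells, with a ratio of 0.38 (-0.16 to 0.95). Tcf7 at -0.46, S1pr1 at -0.09 and Il7r, the IL-7 receptor, at -0.09 had negative ratios.

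Genes of tissue resident T cells had the opposite order. Of 10 measured, 9 had a negative ratio, with a median of -0.72 (-0.92 without the T cells above the microglia line and -0.43 with TMM scaling), and 3 genes, Cxcr6, Rgs1 and Bhlhe40, passed the limit, where 10.6% of all genes did. Cxcr6 (chromosome 9, 123806475 to 123811760) was at 507 CPM in Disc1 WT/WT and 142 CPM in Disc1 LI/LI, a ratio of -1.83 (-2.23 to -1.44), and was found in 42 of 61 (68.9%) and 30 of 85 (35.3%) cells. Thinned to 1500 UMIs, these shares were 48.5% and 16.1%, and Cxcr6 was found in 0.0152% and 0.0860% of microglia-rule cells. Without the T cells above the microglia line the Cxcr6 ratio was -1.99 (-2.48 to -1.51). Rgs1, a regulator of G protein signaling, was in 35 and 28 cells, with a ratio of -1.37 (-1.80 to -0.95), but microglia-rule cells held it too (30.8% and 25.3%), and its ratio without the T cells above the line was -0.40 (-1.16 to 0.40). When the cells were thinned to 1000 UMIs before the choice it was 1.40, the opposite sign. Ratios after this thinning, here and below, rest on fewer UMIs and are given without intervals. Cd69, which keeps cells in tissue, was at 418 and 236 CPM, a ratio of -0.83 (-1.18 to -0.48), in 36 and 54 cells. Among T cells below the microglia line 2 genes passed the limit, Cxcr6 and Cd69, the latter at -1.07 (-1.58 to -0.56), while Bhlhe40 was left with 9 and 6 UMIs, under the minimum. Itga1, the collagen binding integrin of resident cells, was in 14 of 61 and 4 of 85 cells with 20 and 9 UMIs, a total of 29 that lay just under the minimum of 30.

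**Figure D5:**
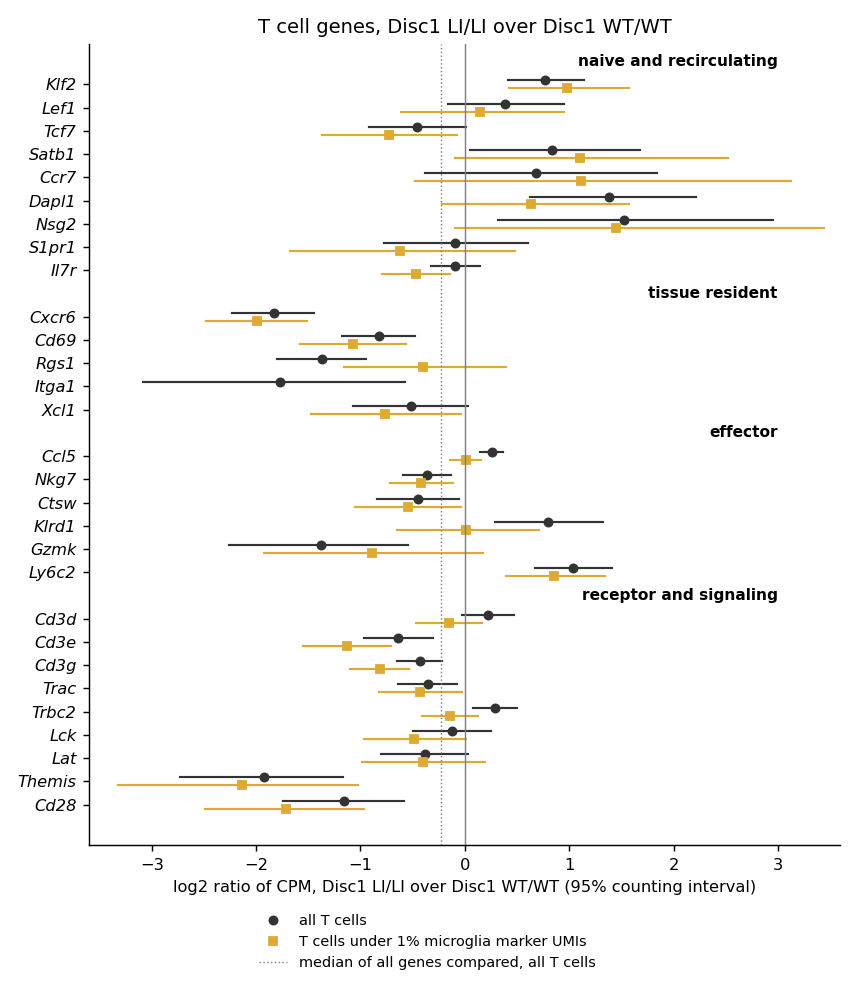
Log2 ratio of CPM in T cells, Disc1 LI/LI over Disc1 WT/WT (x axis), with counting intervals, for 29 genes in 4 groups, over all T cells (circles) and over T cells with under 1% microglia marker UMIs (squares; Itga1 had too few UMIs). Klf2 lies to the right of 0 and Cxcr6 (-1.83 and -1.99) and Themis to the left of it in both sets of cells, and the dotted line is the median of all genes at -0.23.

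Of 7 cytokine genes measured, 3 passed the limit as lower in Disc1 LI/LI T cells, beside 10.6% of all genes, and 6 had a negative ratio, beside 4933 of 7422 genes. The median was -1.44, and -1.22 with 4 past the limit without the T cells above the microglia line. Il17a was the lowest of all genes, at -4.16 (-5.06 to -3.37), and rests on 5 cells against 1. Cd40lg (chromosome X, 57212143 to 57224042) was at 151 and 12.8 CPM, in 16 of 61 and 4 of 85 cells, a ratio of -3.56 (-4.95 to -2.42), or -5.45 (-8.55 to -3.51) with 40 and 2 UMIs without the T cells above the line. Tnf was at 202 and 42.0 CPM in 14 and 13 cells, a ratio of -2.26 (-3.01 to -1.57), and 30 of its 72 Disc1 WT/WT UMIs came from 1 cell. Without the T cells above the line it had 39 and 5 UMIs, a ratio of -4.10 (-5.80 to -2.75). Ltb, lymphotoxin beta, which lymphocytes make without stimulation, was found in 54 of 61 and 81 of 85 cells, with a ratio of 0.13 (-0.13 to 0.39). Ifng was in 11 and 6 cells with 18 and 10 UMIs.

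The receptor and CD3 genes, some of which chose the cells, differed little. Of 10 measured, Trdc alone passed the limit, with a ratio of 1.52 (0.70 to 2.44) that rests on 1 cell against 6, and the median was -0.27 (0.02 with TMM scaling). Thinned to 1000 UMIs before the choice the Trdc ratio was -0.011. Without the T cells above the microglia line, Cd3e passed as lower at -1.13 (-1.55 to -0.71). Trbc2 was at 818 and 999 CPM, and its ratio was 0.29 (0.08 to 0.50). Signaling genes downstream of the receptor were negative in 23 of 25, with a median of -0.57 (-0.27 with TMM scaling and -0.93 without the T cells above the microglia line), and 4 passed the limit as lower (6 without those cells). Of all genes 4933 of 7422 were negative and 10.6% passed it, and 148 of 1725 passed it as lower below the line. Themis, Cd28 and Icos were among the 4, and Icos was left with 16 and 3 UMIs below the line, under the minimum. Themis was in 29 of 61 and 20 of 85 cells, with a ratio of -1.93 (-2.73 to -1.17). Lck was at 294 and 270 CPM, a ratio of -0.12 (-0.49 to 0.25). Txk was the gene of this list with the highest ratio, 0.72 (0.22 to 1.23), and was found in 24 and 51 cells.

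Among 13 T lineage factors, 10 had a negative ratio, with a median of -0.64 (-0.34 with TMM scaling), and 2, Ikzf3 and Id2, passed the limit. These counts lie near those of all genes, of which 4933 of 7422 were negative and 10.6% passed it. Among T cells below the microglia line, Id2 and Bcl11b passed it, the latter at -1.13 (-1.84 to -0.43), and Ikzf3 was left with 15 and 14 UMIs, under the minimum. Id2, which supports effector and resident cells, was at 359 and 179 CPM (interval of the ratio -1.40 to -0.61), and Bcl11b at 219 and 117 CPM, a ratio of -0.90 (-1.40 to -0.41). Satb1, an organizer of chromatin in naive cells, was in 12 of 61 and 38 of 85 cells, with a ratio of 0.84 (0.05 to 1.68), but was also found in 24.3% and 19.7% of neutrophil-rule cells. Id3, a factor of naive and memory cells, was in 3 and 14 cells, with 3 and 20 UMIs.

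Effector and cytotoxic genes did not move together. Of 18 measured, 13 had a negative ratio, with a median of -0.40 (-0.11 with TMM scaling), which lies near the 4933 of 7422 and the -0.31 of all genes. Ly6c2 passed the limit as higher and Gzmk and Id2 as lower. Below the microglia line, Ccl4 passed it as higher and Id2, Klrk1, Klrc1 and Cxcr3 as lower. Ccl5 was at 2806 and 3354 CPM, in 36 and 48 cells, a ratio of 0.26 (0.15 to 0.37), and Nkg7 at 813 and 634 CPM, in 40 and 59 cells, a ratio of -0.36 (-0.59 to -0.13). The Ccl5 ratio is smaller than the 0.29 by which TMM scaling moves every ratio up, so it lies further above 0 with that scaling. The Nkg7 ratio became -0.06 with it. Gzmk was at 95.3 and 36.5 CPM, a ratio of -1.38 (-2.26 to -0.54), but -0.89 (-1.92 to 0.17) without the T cells above the line and 1.31, the opposite sign, when thinned to 1000 UMIs before the choice. Ly6c2, a surface protein of memory CD8 cells and of monocytes, was at 233 and 477 CPM, a ratio of 1.04 (0.67 to 1.41), in 19 and 51 cells. In microglia-rule cells it was at 19.1 and 356 CPM and in 0.473% and 13.8% of cells, and in NK-rule cells at 346 and 188 CPM and in 47.6% and 30.6%. Over neutrophil-rule cells it was at 499 and 681 CPM, and over all cells kept at 40.6 and 820 CPM. The part of transcripts from other cells in the T cell level was not tested.

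Other groups of T cell genes were counted in the same way. All 7 inhibitory receptors measured had a negative ratio, with a median of -0.51 (-0.22 with TMM scaling), beside 4933 of 7422 and -0.31 for all genes. Of the 3 that had 30 UMIs, Entpd1 (CD39) passed the limit at -1.23, a gene that microglia are known to express as well. Among T cells below the microglia line, 4 were measured, with a median of -1.27, and 0 had the 30 UMIs to be called. Of 12 chemokine receptors, 7 were negative, with a median of -0.16 (0.13 with TMM scaling), and Cxcr6 was among those that passed the limit. Of 11 adhesion and gate genes, 8 were negative, beside 4933 of 7422 of all genes, and 2, Itga4 and Itgb1, the chains of the integrin VLA-4, passed it, beside 10.6%. Below the microglia line 5 were positive and 6 negative, and 1 passed the limit as higher and 2 as lower. Itgb1 was at 555 and 214 CPM, a ratio of -1.38 (-1.72 to -1.04), and -1.97 (-2.49 to -1.46) without the T cells above the microglia line. Of 5 measured genes of regulatory T cells, Tnfrsf4 (OX40) alone passed the limit, with 6 UMIs in 4 cells and 57 UMIs in 5 cells, and 0 of the list passed it without the T cells above the line. Innate-like T cell genes, 3 positive and 3 negative, held Trdc as higher and Maf and Il17a as lower, and the median went from -0.36 to -2.67 over 5 genes without the T cells above the line. MHC class I genes had a median of -0.22 (0.07 with TMM scaling) and interferon response genes of -0.05 (0.24), and 0 of the 11 and 17 measured passed the limit. Without the T cells above the line, Tapbp of the first list did, at -1.13 (-2.19 to -0.07).

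The actin genes that the study follows in microglia were also measured in T cells. Of 20 genes of the ARP2/3 and WAVE complexes, which build branched actin, 8 had a positive and 12 a negative ratio, the median was -0.04 (0.25 with TMM scaling) and 0 passed the limit. Over the T cells below the microglia line the median was -0.14 and Actr2, a subunit of ARP2/3, passed it as lower, at -1.03 (-1.68 to -0.38) with 41 and 44 UMIs, beside -0.93 in all T cells. The summed level of the list was 6171 CPM in Disc1 WT/WT and 6252 CPM in Disc1 LI/LI T cells. All 7 formins measured, which build straight filaments, had a negative ratio, with a median of -0.98 (-0.69 with TMM scaling), beside 4933 of 7422 and -0.31 for all genes. The one past the limit, beside 10.6% of all genes, was Diaph2, with 49 UMIs in 27 and 28 UMIs in 19 cells. Diaph2 spans 716093 bases, and the median ratio in the bin of the longest genes was -0.62. In the T cells below the microglia line, 3 formins were measured, with a median of -0.56, 0 passed, and Diaph2 was left with 8 and 8 UMIs. Disc1 itself had 3 UMIs in 2 of 61 Disc1 WT/WT T cells, both above the microglia line, and 0 UMIs in 85 Disc1 LI/LI T cells, which allows a share of cells with a UMI, not of cells that express it, of up to 3.53% (3 counts of the total). In microglia-rule cells it was detected in 8.99% and 0.817% of cells, at 20.0 and 1.67 CPM, so a change in T cells was not detectable at this depth.

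Several of the genes highest in Disc1 LI/LI T cells were also found in other cells of that library, and the part of those cells in the ratios was not tested. The 10 highest were Hist1h1b, Chil3, Camp, Fabp4, Lcn2, Ube2c, Fn1, Ifitm6, Nusap1 and Igkc, of which 9 had 0 UMIs in Disc1 WT/WT T cells. Against a floor of 3 UMIs over the 61 Disc1 WT/WT cells, Camp, a neutrophil granule protein, was at least 15.2-fold higher, with 70 UMIs in 47 of 85 cells, 30 of them with 1 UMI. The other classes held it too, in 45.5% of Disc1 LI/LI microglia-rule cells and 1.62% of those of Disc1 WT/WT. Over 11 neutrophil markers, without Csf3r, the level in Disc1 LI/LI T cells was 0.756% of that in neutrophil-rule cells at the median, beside 0.720% in microglia-rule cells and 0.797% in NK-rule cells. In Disc1 WT/WT it was 0.0146% in T cells and 0.0278% in microglia-rule cells. Single markers differed more between the classes, with Mmp9 at 1.49% in T cells, 0.415% in NK-rule cells and 1.66% in microglia-rule cells of Disc1 LI/LI. Csf3r, a cytokine receptor left out for its level in microglia-rule cells (46.6%), was at 11.5% in T cells and 3.66% in NK-rule cells. Igkc, an antibody light chain, was found in 32 of 85 Disc1 LI/LI T cells and in 26.4% of microglia-rule cells of that library, at 610 and 4985 CPM.

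Other transcripts were held by few T cells. At least 2 of 6 B cell genes (Cd79a, Cd79b, Ebf1, Ms4a1 and Pax5 among them) were found in 1 of 61 and 10 of 85 T cells, and at least 2 of 6 cell cycle genes (Mki67, Top2a, Birc5, Ccna2, Cdk1 and Cenpf) in 2 and 4. Hist1h1b, the histone made in S phase that was highest of all, had 92 UMIs in 5 Disc1 LI/LI cells, and Top2a had 54 UMIs in 5. Fabp4 came from 1 cell, with 59 UMIs, and 83 of the 84 Areg UMIs came from 1 cell. Of 13 cell cycle genes, 12 had a positive ratio, with a median of 3.24, but without the cells that hold B cell or cell cycle genes, a choice made after these values were seen, the median was -0.29 and 54 genes in place of 101 were higher. Monocyte markers stood at 454 CPM in Disc1 WT/WT T cells and 1368 CPM in Disc1 LI/LI T cells, with Ly6c2 the most abundant, beside 143 and 1743 CPM in microglia-rule cells. Markers of neurons were at 0 UMIs in T cells of both libraries, and those of mast cells and basophils at 0 and 50 UMIs.

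Immediate early genes, which respond to stimulation within minutes, were 11 positive to 1 negative in Disc1 LI/LI T cells, with a median of 0.71, beside 2489 of 7422 positive and -0.31 for all genes, and 2 passed the limit, beside 2.56%. The median was 1.75 without the T cells above the microglia line, with 4 past the limit, but -0.18 when cells were thinned to 1000 UMIs before the choice. Fos was at 149 and 305 CPM (13 and 30 cells), a ratio of 1.04 (0.58 to 1.51), and Zfp36 was the other gene past the limit. Thinned to 1000 UMIs, both turned negative, with Fos at -0.27 and Zfp36 at -0.86. Jun was the negative gene, at -0.55 (-0.89 to -0.21), and Junb was at 0.13 (-0.10 to 0.36). In microglia-rule cells Fos was at 129 and 344 CPM, and in neutrophil-rule cells at 1844 and 1855 CPM. The part of transcripts from those cells in the T cell values was not tested.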

How the data were processed

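Single cells of 2 libraries, 1 per genotype, were analysed. With Cell Ranger 6.1.2, STAR and mm10 the authors made a matrix of UMI counts, which was deposited unnormalized. The study's methods, which state a smaller total of cells than the barcodes deposited here, processed these counts further in Seurat 3.0.1, and they do not say which of 2 droplet chips each library used. The total was 33601957 UMIs over 7038 barcodes for Disc1 WT/WT and 47731571 over 7834 for Disc1 LI/LI.

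T, NK, microglia and neutrophil cells were taken by detection of marker genes in each cell, without clustering. Doublets were not removed. UMIs were summed per class and library. Ratios have Clopper-Pearson intervals and shares exact binomial intervals (95%), for counting error only. Genes at 0 were compared through a floor of 3 UMIs. Lists (22, with markers of 17 cell types) were described by medians over genes with at least 10 UMIs, 0.5 UMIs added. Thinned shares are expected values. The T cells, the lists and the rules were chosen with earlier results of these data known. Genes named are members of the lists, the highest and lowest ratios (20 over microglia, 10 on each side for the others), Disc1, and the most frequent receptor segments. Fabp4, Areg and other genes singled out for few cells were chosen after their values were seen. Gene identifiers matched GENCODE M21 for 32235 of 32285 genes. The ratios were tested on simulated data. Some members of the lists, though counted in them, are not reported here by name. Alternatives were other cell limits, thinning, scaling, UMI minimums, and T cells left out for microglia, B cell or cell cycle transcripts. TMM factors came from edgeR 4.0.16 in R 4.3.3, and the rest was computed in Python 3.11.15 with scipy 1.17.1, numpy 2.4.6 and pandas 2.3.3 and drawn with matplotlib 3.10.9.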

Additional observations from a re-analysis of the deposited data

How the results depend on the processing

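No paired analysis was possible because each genotype has 1 library. The share of Disc1 LI/LI cells that were T cells stayed between 0.627% and 1.22% and that of Disc1 WT/WT between 0.455% and 0.879% over 11 alternatives. Leaving out T cells with at least 1% microglia marker UMIs gave 0.455% and 0.627%, 148 lower genes, and medians of -2.67 for innate-like and 1.75 for immediate early genes. Leaving out the T cells in the highest 5% of UMIs gave 266 lower genes. Without cells that hold B cell or cell cycle genes, added after seeing the data, there were 54 higher genes and a cell cycle median of -0.29. Thinned to 1000 UMIs before the choice, T cells made up 0.625% and 0.670%, Cd4 alone was found in 9.30% and 1.92% of them, 9 genes were higher and 19 lower, and the medians were -1.46 for innate-like and -0.18 for immediate early genes. The ratios of Trdc (-0.011), Gzmk (1.31), Rgs1 (1.40), Fos (-0.27) and Zfp36 (-0.86) changed sign there. TMM scaling gave 206 higher and 194 lower genes, a minimum of 10 UMIs 193 and 723, and a minimum of 100 UMIs 25 and 54. With no count minimum the thymic precursor median was -0.62 in place of 4.87 over 1 gene. Other than by construction, the causes were not tested.

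The naive list stayed positive (0.37 to 0.93) and the tissue resident list negative (-0.93 to -0.43) in 15 settings, as did the ratios of Klf2 (0.39 to 1.13) and of Cxcr6 (-2.13 to -0.77). With 61 and 85 cells, genes of few UMIs per cell, Cd4 and Disc1 among them, are missed in many cells, and 1 library per genotype leaves every difference open to the library.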

Other observations

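Markers of other cells were also summed in T cells, and their part in the ratios was not tested. The 8 B cell markers stood at 286 CPM in Disc1 WT/WT T cells and 804 CPM in Disc1 LI/LI T cells, with Ighm the most abundant, beside 250 and 506 CPM in microglia-rule cells. The 7 plasma cell markers, led by Xbp1 in Disc1 WT/WT and by Igkc in Disc1 LI/LI, stood at 132 and 780 CPM. Dendritic cell markers, led by Cd74, stood at 2405 and 1602 CPM, below the 2749 and 3333 CPM of microglia-rule cells. Border macrophage markers stood at 227 and 259 CPM and those of ILC2 at 115 and 179 CPM, the latter from Rora in Disc1 WT/WT and Areg in Disc1 LI/LI. Platelet markers had 26 and 52 UMIs, endothelial markers 17 and 15, oligodendrocyte markers 37 and 32, and astrocyte markers, all from Slc1a3, 26 and 30. Hemoglobin and other erythroid genes had 0 and 9 UMIs, and no hemoglobin gene reached the 10 UMIs that the lists required.

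The 3 coreceptor genes Cd4, Cd8a and Cd8b1 had a median log2 ratio of -0.56, Disc1 LI/LI over Disc1 WT/WT, and 0 of the 2 with at least 30 UMIs passed the 2-fold limit. Cd4 was at 58.9 and 14.6 CPM, a ratio of -2.01 (-3.39 to -0.78), but its 29 UMIs lay just under that minimum. Of 4 sex-linked genes measured, 2 were positive and 2 negative, with a median of -0.17 that TMM scaling turned to 0.12, and 0 passed it.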
